A study of Homo sapiens with 6 samples.

Results

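The calcium-calmodulin dependent protein kinases (CaM kinases) were examined in AN3CA cells, a human line established from an endometrial cancer. Transcript levels were compared between cells transduced with an empty short hairpin vector (shEV, 3 libraries) and cells transduced with a short hairpin RNA against *PAX2* (shPAX2, 3 libraries). The members were the genes of the 10 symbols *CAMK4*, *CAMK1*, *CAMK1D*, *CAMK1G*, *CAMK2A*, *CAMK2B*, *CAMK2D*, *CAMK2G*, *CAMKK1* and *CAMKK2*. Of these, 8 had a row among the 17471 genes listed, and 6 were expressed enough to test. *CAMK1G* and *CAMK2A* were not analysed here, since they had no row. *CAMK4* was chosen because it fell in this same comparison, so its values are given as a description with no test. The other members were chosen by family name, with earlier results of these data known.

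Both groups were AN3CA cells that had been transduced with lentivirus, selected with puromycin and grown in MEM with fetal bovine serum. The groups differed in the vector, and the knockdown was represented by 1 hairpin. AN3CA is 1 of the endometrial cancer lines that express *PAX2*, a paired-box developmental transcription factor, and the study used the knockdown to ask what loss of *PAX2* does in such a line. The labels do not say whether the libraries of a group came from separate cultures, so p-values measure only the spread between these libraries, which may be technical.

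CaM kinases turn a rise in cytosolic calcium into protein phosphorylation. Calcium-loaded calmodulin binds each kinase and frees its active site, and the upstream kinases encoded by *CAMKK1* and *CAMKK2* then phosphorylate the activation loop of the CAMK1 family and of CAMK4. CAMK2 enzymes are instead large holoenzymes of several subunits that phosphorylate themselves. CAMK4 is largely nuclear, is best known from T cells, neurons and male germ cells, and phosphorylates CREB and other regulators of transcription. CAMKK2 also phosphorylates AMP-activated kinase.

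The upstream sequence is shown for *CAMK4* and *CAMK1D*, the members with the largest differences, and for *CAMK2N2*, an inhibitor gene with the opposite direction. Each run holds the 250 bases before an annotated RefSeq start, read 5′ to 3′ on the strand of the gene and placed on GRCh37. Capitals mark each GGGCGG, the GC box bound by SP-family factors, or its reverse complement CCGCCC. The *CAMK4* run lies at chr5:110559832-110560081 on the plus strand and precedes the last of its 3 RefSeq starts, within 100 bases of which 6 of 13 GENCODE transcripts begin. The *CAMK1D* run lies at chr10:12430731-12430980 on the plus strand, and the *CAMK2N2* run at chr3:183979342-183979591 on the minus strand. That *CAMK1D* run precedes its 1 RefSeq start, which lies inside the gene as GENCODE places it, from 12391546. The sequence before the GENCODE start was not searched.
CAMK4: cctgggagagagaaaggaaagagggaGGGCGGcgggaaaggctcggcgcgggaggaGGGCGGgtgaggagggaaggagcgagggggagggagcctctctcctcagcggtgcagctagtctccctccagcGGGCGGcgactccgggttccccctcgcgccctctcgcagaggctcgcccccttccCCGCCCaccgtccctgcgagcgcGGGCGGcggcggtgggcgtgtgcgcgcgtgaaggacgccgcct
CAMK1D: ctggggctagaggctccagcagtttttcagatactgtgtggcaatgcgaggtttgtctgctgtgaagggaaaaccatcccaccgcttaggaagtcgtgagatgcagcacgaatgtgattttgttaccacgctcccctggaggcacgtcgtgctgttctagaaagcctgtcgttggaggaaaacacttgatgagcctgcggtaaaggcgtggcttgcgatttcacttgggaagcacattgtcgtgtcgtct
CAMK2N2: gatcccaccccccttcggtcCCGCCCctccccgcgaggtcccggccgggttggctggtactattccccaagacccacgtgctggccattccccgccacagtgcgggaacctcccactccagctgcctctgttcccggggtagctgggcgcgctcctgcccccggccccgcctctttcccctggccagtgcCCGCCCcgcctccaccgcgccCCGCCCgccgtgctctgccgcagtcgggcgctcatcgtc

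The *CAMK4* run held 30 CpG dinucleotides, 74.4% G or C and 5 GC boxes. The windows before the first and second RefSeq starts of *CAMK4*, not shown, held 0 and 11 CpG dinucleotides and no GC box. The *CAMK1D* run held 13 CpG dinucleotides, 52.4% G or C and no GC box, and the *CAMK2N2* run held 25 CpG dinucleotides, 74.4% G or C and 3 GC boxes. Over 35116 windows of the same length upstream of RefSeq starts, the median was 11 CpG dinucleotides and 42.6% held a GC box. The 13 windows of the 10 members ran from 0 to 46 CpG dinucleotides. Both strands were also searched for the CREB motif TGACGTCA, which 1.65% of all windows held, for its shorter form TGACG (21.2%), which every TGACGTCA contains, and for GTCACGC, a core of the PAX2 motif (2.2%). None of the 13 member windows held TGACGTCA or GTCACGC, and that of *CAMK2A* held TGACG. These matches describe letters in the windows and not binding.

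The 6 libraries were checked first. *PAX2* stood at 4.03, 3.66 and 2.74 TPM (transcripts per 1000000, that is, reads per gene length scaled to a fixed total) in shEV replicates 1 to 3 and at 0.916, 0.723 and 1.17 TPM in shPAX2 replicates 1 to 3. Its log2 fold change was -1.47 (SE 0.18, limma adjusted p 0.000294), in the direction of the labels. The depth recovered from the values was 10730909 to 18221859 reads per shEV library and 19422615 to 29405787 reads per shPAX2 library, and the ranges did not meet. Of 6 epithelial markers, *KRT18* had a mean of at least 1 TPM, while *EPCAM*, *CDH1*, *KRT7*, *KRT8* and *KRT19* stayed under 1 TPM in all libraries. The epithelial sum was 10.8 to 13.3 TPM in shEV and 12.1 to 17.8 TPM in shPAX2. Of the cells known for CAMK4, T cell markers had 3 of 6 genes listed, with a sum of at most 0.0498 TPM. Neuron markers had 4 of 6 listed, with sums of 0 to 0.0422 TPM in shEV and 0.0944 to 0.307 TPM in shPAX2. Endothelial markers had 2 of 4 listed and a sum of at most 0.0611 TPM. Fibroblast markers had 4 of 6 listed and summed to 811 to 858 TPM in shEV and 362 to 441 TPM in shPAX2, nearly all of it *COL1A2*, and the part of this difference in the results was not tested.

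*CAMK4* was high in every shEV library and close to 0 in every shPAX2 library. The gene (chromosome 5, 110559351 to 110830584, plus strand) reached 13.3, 14.1 and 15.1 TPM in the shEV libraries (replicates 1 to 3, the order used throughout), which held 160, 279 and 306 of its reads. The shPAX2 libraries gave 0.117, 0.331 and 0.183 TPM, with 4, 10 and 4 reads, although these libraries were deeper. The lowest shEV library was thus far above the highest shPAX2 library. The mean level was 14.2 ± 0.914 TPM with the empty vector and 0.210 ± 0.110 TPM with the hairpin (SD, n = 3 each), or 1.48% of the shEV level, a 67.4-fold difference in TPM. On the log2(TPM + 0.5) scale, which understates changes near 0, the difference was -4.38 (SE 0.14), and on the recovered reads, with voom, it was -6.07. In a bulk sample, fewer cells with *CAMK4* RNA and less *CAMK4* RNA per cell cannot be told apart.

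*CAMK1D* was lower in shPAX2 as well. It encodes a CAMK1-family kinase, which like CAMK4 is a substrate of the CAMKK enzymes, and lies on chromosome 10 (12391546 to 12877545, plus strand). Its shEV libraries gave 1.87, 1.35 and 1.69 TPM on 27, 32 and 41 reads, and its shPAX2 libraries gave 0.219, 0.166 and 0.267 TPM on 9, 6 and 7 reads. The groups did not overlap. The mean fell from 1.64 ± 0.266 to 0.217 ± 0.0507 TPM (SD, n = 3 each), to 13.3% of the shEV level, with a log2 fold change of -1.57. *CAMK4* and *CAMK1D* reached the filter on low values only through the shEV libraries, the group in which they were high, so their place among the genes tested depended on the difference itself. In the limma fit with no filter the adjusted p of *CAMK1D* was 0.000368 (SE 0.13). With any 1 shEV library left out neither was tested, and no member then passed the threshold. With the filter lowered to 2 libraries, chosen after seeing the data, there were 2 again.

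*CAMK1*, the founding gene of that family (chromosome 3, 9799031 to 9811676, minus strand), was at the limit of detection. It was given 1, 0 and 0 reads in shEV and 0, 1 and 0 reads in shPAX2, up to a factor common to the libraries, and at this depth a difference could not be detected. It overlaps *OGG1* on the opposite strand.

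The upstream kinases fell by less. *CAMKK2* (chromosome 12, 121675478 to 121736111, minus strand) stood at 13.7, 13.1 and 13.6 TPM in shEV and at 10.2, 8.86 and 8.51 TPM in shPAX2. Every shPAX2 library lay below every shEV library, and the log2 fold change was -0.53 (SE 0.08, limma adjusted p 0.00131). *CAMKK1* (chromosome 17, 3763609 to 3798185, minus strand) stood at 5.58, 6.25 and 5.03 TPM in shEV and at 4.25, 4.03 and 3.83 TPM in shPAX2. These groups did not overlap either, and the log2 fold change was -0.43 (SE 0.11, limma adjusted p 0.0123). That call was lost under quantile normalization, at -0.20 (adjusted p 0.162), and without shEV replicate 2, at -0.35 (adjusted p 0.0512). The ratio of *CAMKK2* to *CAMKK1* in TPM was 2.45, 2.10 and 2.70 in shEV and 2.41, 2.20 and 2.22 in shPAX2, so the ranges of the ratio overlapped.

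Among the CAMK2 genes, which encode alternative subunits of 1 holoenzyme, *CAMK2G* was the highest member of all and *CAMK2D* the next. *CAMK2G* (chromosome 10, 75572259 to 75634349, minus strand) stood at 42.2, 38.9 and 39.6 TPM in shEV and at 43.7, 40.0 and 38.6 TPM in shPAX2. The groups overlapped, and the log2 fold change of 0.02 (SE 0.07, limma adjusted p 0.851) ran from -0.03 to 0.13 over the alternatives. *CAMK2D* (chromosome 4, 114339210 to 114683083, minus strand) stood at 17.4, 17.1 and 19.0 TPM in shEV and at 13.7, 12.8 and 13.1 TPM in shPAX2. It fell without overlap to 74.1% of the shEV mean, a log2 fold change of -0.42 (SE 0.07, limma adjusted p 0.00171). *CAMK2B* (chromosome 7, 44249618 to 44374176, minus strand), known from neurons and muscle, was covered by 0, 7 and 8 shEV reads and by 4, 8 and 3 shPAX2 reads and was not tested. It overlaps *YKT6* on the opposite strand.

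**Figure D1:**
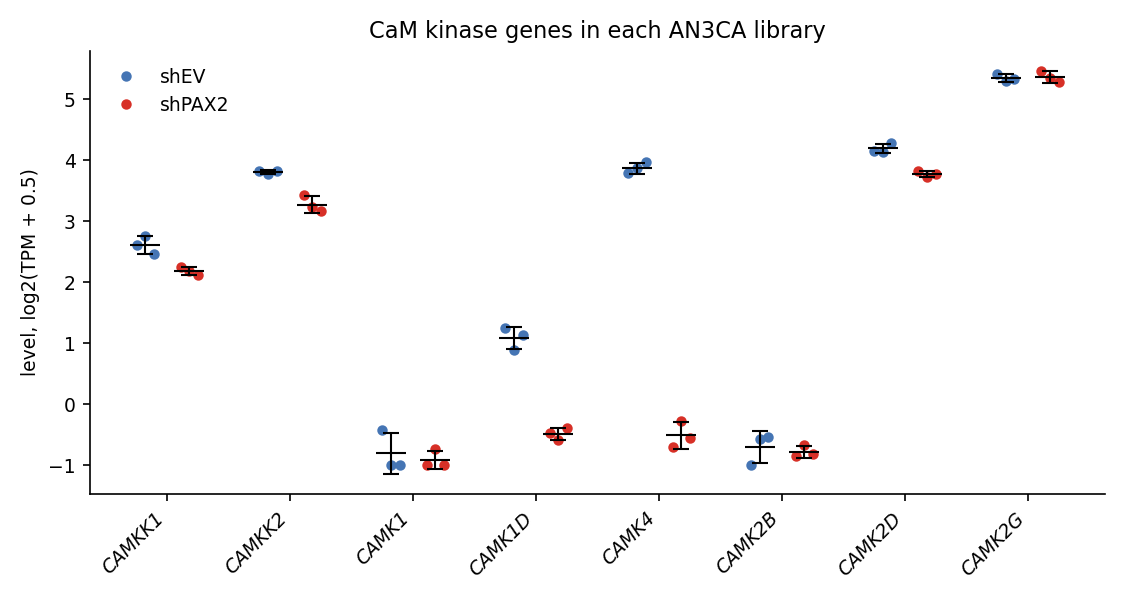
Level of the 8 listed CaM kinase genes on the log2(TPM + 0.5) scale, 1 point per library (shEV blue, shPAX2 red), with horizontal bars at the group mean and error bars of 1 SD (n = 3). *CAMK4* drops from 13.3 to 15.1 TPM in shEV to 0.117 to 0.331 TPM in shPAX2, *CAMK1D* drops from a lower level, and *CAMK2G* overlaps between the groups.

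Of the 6 members tested, 2 passed the threshold (limma adjusted p under 0.05 and a log2 fold change of 1 or more in either direction), both lower in shPAX2. Of all 13163 genes tested, 4.54% passed it, 1.43% higher and 3.11% lower. Both are the genes that passed the filter only through shEV, and *CAMK4* was picked for this fall, so the counts and the median here describe the members and support nothing. By the adjusted p alone, at a limit of 0.05 and without the fold criterion, 5 of the 6 differed, all lower, against 42.8% of all genes (30.5% lower and 12.2% higher). Apart from *CAMK4* and *CAMK1D*, these were *CAMK2D*, *CAMKK1* and *CAMKK2*, 3 of the other 4. The groups did not overlap for 5 of the 6, against 54.9% of all genes. The median log2 fold change of the 6 was -0.48, against -0.10 for all genes tested. Under median-of-ratios scaling, which brings the median of all genes to 0.0053, the median of the members was -0.37.

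The order of the members by level changed with these differences. In shEV the mean TPM ran from *CAMK2G* through *CAMK2D*, *CAMK4*, *CAMKK2*, *CAMKK1*, *CAMK1D* and *CAMK2B* to *CAMK1*, and the library values of *CAMK4* and *CAMKK2* overlapped, as did those of *CAMK2B* and *CAMK1*. In shPAX2 *CAMK4* took the sixth place, and its values overlapped those of *CAMK1D* above it and *CAMK2B* below it, while *CAMK2B* and *CAMK1* overlapped again. The other neighbours in each order did not overlap.

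The summed level of the 8 genes was 93.1 ± 1.90 TPM for shEV and 67.7 ± 4.0 TPM for shPAX2 (SD, n = 3 each), and these sums did not overlap. *CAMK4* made up 15.2% of the sum in shEV (14.1% to 16.04%) and 0.314% in shPAX2 (0.161% to 0.498%). The share of *CAMK2G* was 43.2% in shEV and 60.2% in shPAX2, while its rank was the same and its levels overlapped. Within the CAMK2 genes alone the sum was 58.2 ± 1.79 TPM for shEV and 54.0 ± 2.97 TPM for shPAX2, and the library sums overlapped. There *CAMK2D* supplied 29.2% to 32.3% in shEV and 23.9% to 25.4% in shPAX2, and *CAMK2G* supplied 67.4% to 70.8% and 74.5% to 76.0%. These shares are descriptions, since they rest on the same libraries and partly on *CAMK4*.

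**Figure D2:**
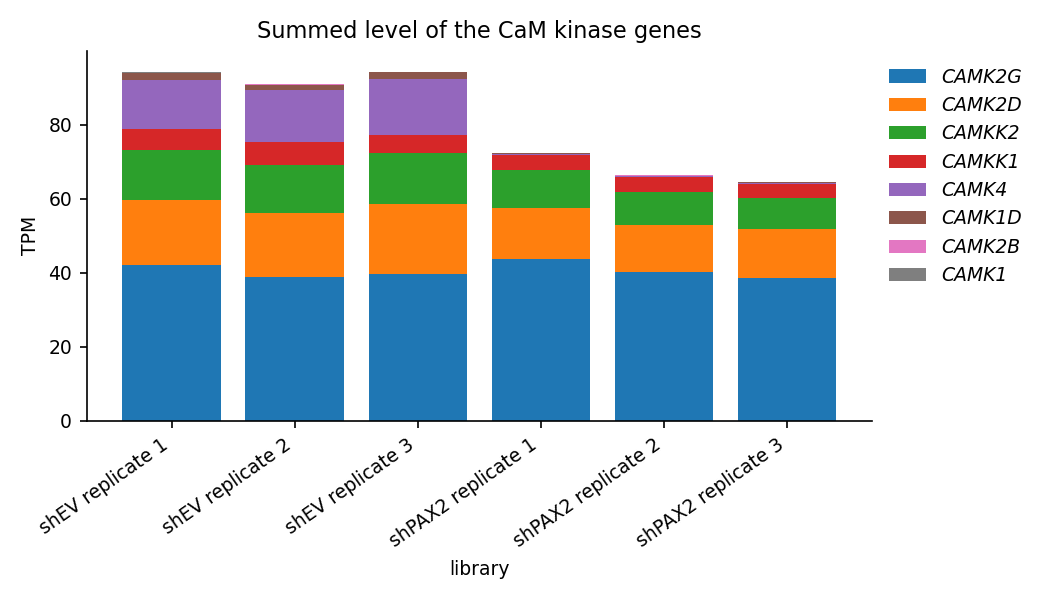
Summed TPM of the 8 listed CaM kinase genes in each library, stacked by gene from 0. The *CAMK4* layer, 14.1% to 16.04% of the sum in shEV, is at most 0.498% in shPAX2, while the *CAMK2G* layer is of similar height in all 6 libraries.

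The genes around the kinases in the pathway were then described from lists of 83 genes in 8 groups, of which 79 were listed and 64 tested. Of the 64, 9 passed the threshold, 5 higher and 4 lower, or 14.1% against the 4.54% of all genes. The lists were chosen with earlier results of these data known. This share and those of the single groups below therefore describe the lists and support nothing. Of the 5 higher genes, *CAMK2N2*, *CAMKV* and *MYLK3* reached the filter only through shPAX2, where they were high. Their place in these counts thus depended on the difference itself. For these 3 genes the adjusted p given below comes from the limma fit with no filter. Without the fold criterion 31 had an adjusted p under 0.05 (limma), 8 higher and 23 lower, or 48.4% against 42.8%. The median log2 fold change was -0.15 against -0.10, and -0.0544 under median-of-ratios scaling. Leaving out shPAX2 replicate 2 or shPAX2 replicate 3 gave 5 genes past the threshold in place of 9, because these 3 genes were then not tested and *PNCK* no longer passed. Under quantile normalization, or with a pseudocount of 1, the count was 7.

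The genes closest to the kinases, their inhibitors and phosphatases, moved in both directions. *CAMK2N1* and *CAMK2N2* encode small proteins that bind and block active CAMK2. *CAMK2N1* (chromosome 1, 20808884 to 20812703) stood at 63.2, 53.9 and 57.9 TPM in shEV and at 19.6, 15.2 and 20.2 TPM in shPAX2, a log2 fold change of -1.65 (SE 0.11, limma adjusted p 2.12e-05). *CAMK2N2* (chromosome 3, 183977001 to 183979341), whose upstream sequence is given above, was covered by 1, 6 and 4 shEV reads and by 126, 98 and 61 shPAX2 reads. This was 0.137, 0.499 and 0.326 TPM against 6.05, 5.35 and 4.596 TPM, a log2 fold change of 2.85 (SE 0.19, limma adjusted p 0.000186 with no filter). Neither gene overlapped between the groups. The sum of both inhibitors was 63.4, 54.4 and 58.3 TPM in shEV and 25.6, 20.5 and 24.8 TPM in shPAX2, so the fall of *CAMK2N1* was larger in TPM than the rise of *CAMK2N2*. The ratio of *CAMK2N1* to *CAMK2N2* was 462, 108 and 178 in shEV, where *CAMK2N2* rested on few reads, and 3.24, 2.83 and 4.40 in shPAX2.

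The phosphatases encoded by *PPM1E* and *PPM1F* remove the activating phosphates from CaM kinases. *PPM1E* (chromosome 17, 56833215 to 57062540) rose from 1.28, 1.18 and 1.03 TPM to 3.58, 3.19 and 3.85 TPM, a log2 fold change of 1.28 (SE 0.13, limma adjusted p 0.000122). It overlaps *TRIM37* on the opposite strand. *PPM1F* stood at 20.7, 19.97 and 20.95 TPM in shEV and at 22.2, 20.2 and 17.1 TPM in shPAX2, an overlap of the groups, with a log2 fold change of -0.05 (SE 0.09, limma adjusted p 0.663).

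Among 14 tested of 17 other kinases of the CaM kinase group, 2 were higher and 2 lower past the threshold, or 28.6% against 4.54% of all genes, with *CAMKV* and *MYLK3* as the higher ones. These 2 reached the filter only through shPAX2, where they were high, so the share depended in part on the difference itself. Over the group the median was -0.18 on the log2 scale, against -0.10. *CAMKV*, which encodes a kinase-like protein of neurons thought to lack activity, was covered by 7, 2 and 5 shEV reads and by 109, 123 and 77 shPAX2 reads. Its level rose from 0.431, 0.0747 and 0.183 TPM to 2.35, 3.01 and 2.61 TPM, a log2 fold change of 2.14 (SE 0.20, limma adjusted p 0.000562 with no filter). *MYLK3*, the cardiac myosin light chain kinase gene, rose by 1.29 on the log2 scale (SE 0.29, limma adjusted p 0.018 with no filter), from 0.256, 0.142 and 0.166 TPM to 0.531, 1.52 and 1.78 TPM. With voom on the recovered reads its log2 fold change was 2.56 and its call was lost (SE 0.93, adjusted p 0.0712), and shPAX2 replicate 1 stood well below the other two. With a pseudocount of 1 the log2 fold change of *MYLK3* was 0.89, under the fold threshold. *DCLK2*, a doublecortin-like kinase gene, fell from 7.41, 8.34 and 7.70 TPM to 3.49, 2.53 and 3.38 TPM, a log2 fold change of -1.20 (SE 0.13, limma adjusted p 0.000125). Under quantile normalization that of *DCLK2* was -0.97, also under the fold threshold.

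*PNCK*, also known as CaM kinase I beta, was the least even of these genes. Its shEV libraries gave 4.13, 7.70 and 13.6 TPM on 43, 132 and 238 reads, and its shPAX2 libraries gave 3.24, 1.26 and 1.32 TPM on 96, 33 and 25 reads. The groups did not overlap, but the shEV libraries themselves spanned a range of over 9 TPM. The log2 fold change was -1.83 (SE 0.54, limma adjusted p 0.0478), close to the threshold. The call was lost under median-of-ratios scaling (adjusted p 0.0542), quantile normalization (0.0713) and a pseudocount of 1 (0.0504). The adjusted p was 0.106 without shEV replicate 2, 0.0606 without shEV replicate 3, 0.155 without shPAX2 replicate 2 and 0.157 without shPAX2 replicate 3. *PNCK* overlaps *SLC6A8* on the opposite strand.

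**Figure D3:**
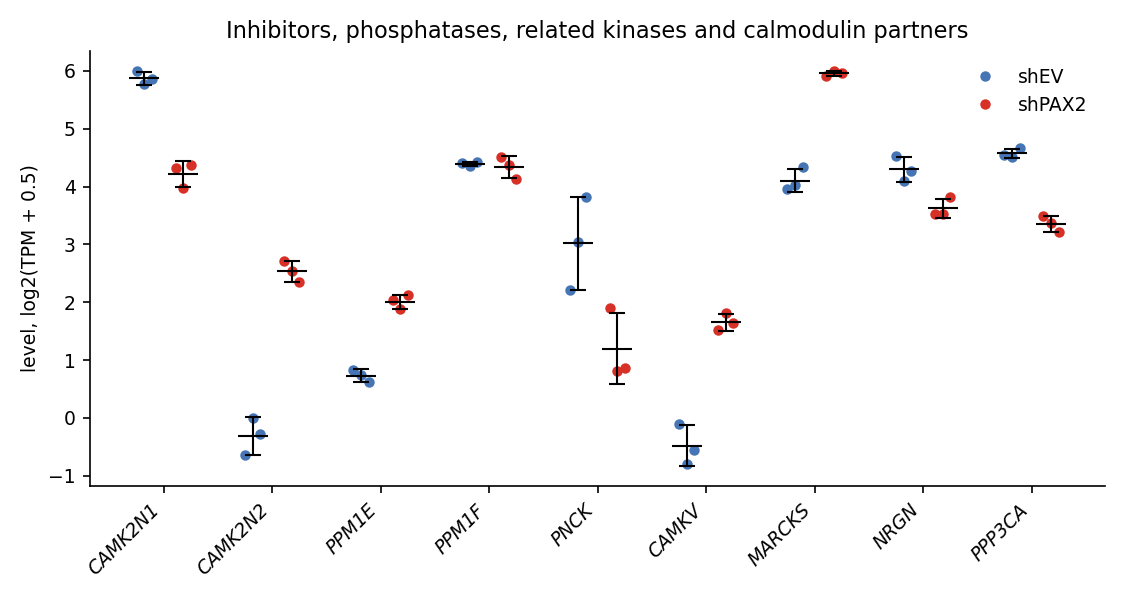
Level of CaM kinase inhibitors, phosphatases, related kinases and calmodulin partners on the log2(TPM + 0.5) scale, 1 point per library (shEV blue, shPAX2 red), with horizontal bars at the group mean and error bars of 1 SD (n = 3). *CAMK2N1* and *CAMK2N2* move in opposite directions, *PPM1F* overlaps between the groups, and *PNCK* has the widest spread.

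Calmodulin itself, the calcium sensor that all these kinases share, is encoded by more than 1 gene. *CALM2* stood at 631, 645 and 685 TPM in shEV and 564, 624 and 644 TPM in shPAX2, with overlapping groups and a log2 fold change of -0.10 (SE 0.07, limma adjusted p 0.271) that was 0.0140 under median-of-ratios scaling. *CALM3* rose from 190.1, 190.5 and 196 TPM to 224, 250 and 253.5 TPM, by 0.33 on the log2 scale (SE 0.06, limma adjusted p 0.0031). Calmodulin genes have processed copies elsewhere in the genome, and how reads shared with them were assigned is not given in the sources used here.

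Of the calmodulin-binding buffers, *MARCKS* was the gene that passed the threshold. It encodes a membrane-bound protein that calcium-calmodulin releases from the membrane, and it lies on chromosome 6 (114178524 to 114184652). It stood at 15.0, 15.7 and 19.6 TPM in shEV and at 59.8, 63.7 and 62.0 TPM in shPAX2, a log2 fold change of 1.86 (SE 0.10, limma adjusted p 2.26e-06). The median log2 fold change was 0.40 over the 565 tested genes of chromosome 6 and -0.11 over genes elsewhere, and the part of that shift in the rise of *MARCKS* was not tested. *NRGN*, neurogranin, which binds calcium-free calmodulin, fell from 22.6, 16.5 and 18.8 TPM to 11.1, 11.0 and 13.5 TPM, by 0.68 on the log2 scale (SE 0.12, limma adjusted p 0.00302), under the fold threshold.

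Transcripts of the factors through which CAMK4 is known to act on transcription came next. Of 8 CREB factors and coactivators, all tested, none passed the threshold in limma or in voom. At an adjusted p under 0.05 in limma 3 were lower, or 37.5% against 30.5% of all genes, and 5 were lower at an unadjusted p under 0.05. Their median was -0.24 on the log2 scale, against -0.10, and -0.13 under median-of-ratios scaling, against 0.0053. Under that scaling the limma adjusted p of the 3 was 0.0148, 0.0736 and 0.0985. *CREM*, which encodes activators and repressors that bind the CREB site, was the lowest, from 52.9, 53.2 and 60.2 TPM to 44.9, 40.3 and 41.8 TPM, a log2 fold change of -0.38 (SE 0.07, limma adjusted p 0.00284). It overlaps *CUL2* on the opposite strand, as *MEF2A* does *LYSMD4* and *HDAC7* does *SLC48A1*. The highest value was that of the coactivator gene *CRTC1*, 0.07 (SE 0.18, limma adjusted p 0.779). Of 8 class IIa HDAC and MEF2 genes, whose products CaM kinases move between nucleus and cytoplasm or release from repression, 6 were tested. None passed the threshold in limma or in voom. In limma 2 were lower at an adjusted p under 0.05, or 33.3% against 30.5% of all genes, and 3 at an unadjusted p under 0.05, with a median of -0.24. Under median-of-ratios scaling that median was -0.14, and neither of the 2 stayed under 0.05 (limma adjusted p 0.124 and 0.0817). *MEF2A* was the lowest, at -0.39 (SE 0.12, limma adjusted p 0.0245), with an adjusted p from 0.00549 to 0.184 over the alternatives. It missed 0.05 without replicate 2 (0.0571) or 3 (0.0550) of shEV and without replicate 2 (0.0791) or 3 (0.0546) of shPAX2. The highest value was that of *HDAC7*, -0.10 (SE 0.12, limma adjusted p 0.536), which was above 0 under median-of-ratios scaling.

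Calcineurin, the calmodulin-dependent phosphatase that acts on NFAT factors, lost transcript of 1 catalytic subunit. *PPP3CA* (chromosome 4, 101944566 to 102269435) fell from 22.8, 22.4 and 24.8 TPM to 10.7, 9.80 and 8.74 TPM, a log2 fold change of -1.22 (SE 0.09, limma adjusted p 1.66e-05). It overlaps *FLJ20021* on the opposite strand. It was the gene of the 8 tested of 12 in the calcineurin and NFAT group that passed at an adjusted p under 0.05. The group had a median of -0.03 (0.0777 under median-of-ratios scaling), and its highest value was that of the regulatory subunit gene *PPP3R1*, at 0.15 (SE 0.05, limma adjusted p 0.0517). With median-of-ratios scaling that gene passed, at a log2 fold change of 0.26 (adjusted p 0.00439).

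The AMP-activated kinase, a target of CAMKK2, had 5 of 7 subunit genes tested. None passed the threshold in limma or in voom, and 2 were lower in limma at a p under 0.05, adjusted or not, or 40.0% against 30.5% of all genes by the adjusted p. The median log2 fold change was -0.04, and 0.0648 under median-of-ratios scaling. Under that scaling neither of the 2 stayed under 0.05 (limma adjusted p 0.117 and 0.0732). The regulatory subunit gene *PRKAG2* was the lowest, at -0.49 (SE 0.16, limma adjusted p 0.0327), with an adjusted p from 0.0103 to 0.224 over the alternatives. It overlaps *PRKAG2-AS1* on the opposite strand. The highest value was that of *PRKAG1*, 0.11 (SE 0.06, limma adjusted p 0.188). The catalytic subunit gene *PRKAA2*, below the filter and named after its values were seen, was covered by 24, 48 and 58 shEV reads and by 1, 0 and 0 shPAX2 reads. Its level was 0.478, 0.581 and 0.687 TPM in shEV, so it was never abundant.

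Of 20 genes for calcium stores, entry and pumps, which shape the calcium signal upstream of calmodulin, 14 were tested. None passed the threshold in limma or in voom. In limma 8 were lower and none higher at a p under 0.05, adjusted or not, or 57.1% lower against 30.5% of all genes by the adjusted p. The median log2 fold change was -0.27, against -0.10 for all genes, and -0.16 under median-of-ratios scaling, against 0.0053. *ITPR1*, the gene for an inositol trisphosphate receptor that releases stored calcium, was the lowest. It fell from 6.67, 5.57 and 6.20 TPM to 3.59, 3.71 and 3.85 TPM, by 0.65 on the log2 scale (SE 0.10, limma adjusted p 0.00116). *ATP2A3*, which encodes a pump that refills the stores, had the highest value, 0.13 (SE 0.10, limma adjusted p 0.319).

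**Figure D4:**
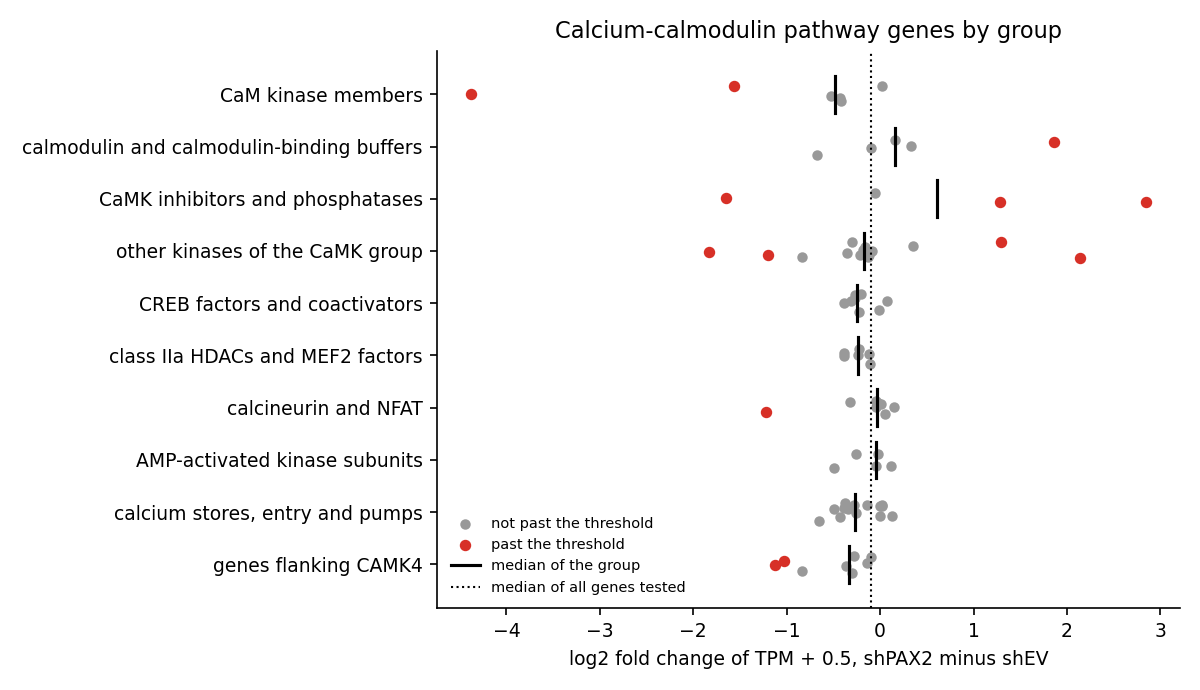
Log2 fold change of TPM + 0.5, shPAX2 minus shEV, for each tested gene of the CaM kinase members, the 8 pathway groups and the genes flanking *CAMK4* (red past the threshold, gray not). Short vertical lines are group medians and the dotted line is the median of all genes tested, -0.10. *CAMK4* stands farthest to the left, and inhibitors and related kinases spread in both directions.

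The neighbors of *CAMK4* on chromosome 5 were listed to set its fall beside the region. Of 9 flanking genes 8 were tested, 2 were lower past the threshold, 5 were lower at a limma p under 0.05, adjusted or not, and none was higher. These shares, 25.0% and 62.5%, stand beside 3.11% and 30.5% of all genes lower by the same rules. This list too was chosen with earlier results of these data known, so the shares only describe it. For the flanking genes the median was -0.33 on the log2 scale, against -0.10. The nearest listed neighbors had far smaller differences than *CAMK4*. *WDR36* (110428019 to 110466200) had a log2 fold change of -0.14 (SE 0.07, limma adjusted p 0.146), and *STARD4* (110831731 to 110848288), which begins just beyond the end of *CAMK4*, had -0.30 (SE 0.06, limma adjusted p 0.00549). *NREP* (110998318 to 111333161) fell from 59.6, 72.3 and 94.2 TPM to 39.7, 33.8 and 34.7 TPM, by 1.03 on the log2 scale (SE 0.17, limma adjusted p 0.00442), and overlaps *STARD4-AS1* on the opposite strand. *TMEM232* (109624934 to 110074657) fell from 1.46, 0.603 and 1.42 TPM to 0.287, 0.209 and 0.225 TPM, by 1.12 on the log2 scale (SE 0.23, limma adjusted p 0.0115 with no filter). It reached the filter only through shEV, where it was high, so its place in the count of 2 depended on the difference itself. It overlaps *SLC25A46* on the opposite strand, the highest of the list at -0.09 (SE 0.05, limma adjusted p 0.172). *MAN2A1* fell from 28.8, 26.8 and 30.3 TPM to 14.8, 17.0 and 15.5 TPM. Its log2 fold change was -0.84 (SE 0.08, limma adjusted p 5.41e-05), under the fold threshold. *NREP* and *TMEM232* lay close to the fold threshold, and the count of 2 was 0 under quantile normalization or without shEV replicate 3, and 1 without replicate 1 or 2 of shEV or replicate 2 of shPAX2.

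The genes whose profile lay nearest to that of *CAMK4* were named by the root mean square difference of log2(TPM + 0.5), centered per gene, over the 6 libraries. The median difference from *CAMK4* was 2.15 over 12475 genes with a mean of at least 1 TPM. *KITLG*, which encodes the KIT ligand, was nearest at 0.211, from 14.9, 13.6 and 14.5 TPM to 0.384, 0.395 and 0.377 TPM. *TNIK*, a serine/threonine kinase gene, followed at 0.257, from 9.85, 12.6 and 13.9 TPM to 0.247, 0.511 and 0.269 TPM. *GRIP1*, a PDZ scaffold gene, was at 0.272, from 10.3, 9.03 and 10.8 TPM to 0.168, 0.308 and 0.203 TPM. *NRP1*, the gene for neuropilin 1, was at 0.277, from 7.02, 7.06 and 8.86 TPM to 0.0221, 0.0376 and 0.0693 TPM. The fifth, *MIR548AA1*, at 0.319, rested on at most 5 reads in a library. *CAMK1D*, with a mean under 1 TPM, was not compared. The other members compared were farther away, with *CAMKK2* at 1.93, *CAMKK1* at 1.98, *CAMK2D* at 1.99 and *CAMK2G* at 2.20. With 2 groups of 3 libraries, the measure mostly ranks genes by how far they fell.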

How the data were processed

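Stranded, rRNA-depleted total RNA of AN3CA cells was sequenced in 6 libraries, 3 shEV and 3 shPAX2. The authors deposited TPM values for 17471 genes named by symbol. The submitters' processing notes name hg19, bcl2fastq, STAR, Subread, featureCounts and edgeR with no versions, and the order of steps is not given in the sources used here. The methods name an empty vector as the AN3CA control, while the study's text elsewhere calls it scrambled.

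Within each gene the TPM values of the libraries had whole-number ratios (relative tolerance 1e-10, largest deviation 7.15e-14), in 100% of genes, so whole reads per gene were recovered up to a factor common to the 6 libraries. In replicate order, the shEV libraries summed to 10730909, 17359110 and 18221859 reads and the shPAX2 libraries to 29405787, 26816117 and 19422615 reads. Counts of reads at or under 3 were taken as the floor, which covers counting error only. Whether counting used strand is not stated, so reads of overlapping genes on opposite strands may be shared.

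The filter kept genes that reached a TPM of 0.5 in 3 or more libraries. Differences of log2(TPM + 0.5) between shPAX2 and shEV were tested two-sided without covariates by limma 3.58.1 (R 4.3.3; lmFit and a robust eBayes with a trend), and p-values were adjusted by the Benjamini-Hochberg method over all 13163 tested genes. A gene passed the threshold with an adjusted p under 0.05 and a log2 fold change of 1 or more in either direction. The fit and the recovery of reads were tested on simulated data. Since TPM values sum to a fixed total, abundant genes move all others.

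Named genes were the members, *PAX2*, every listed pathway or flanking gene past the threshold, the highest and lowest of each list, calmodulin genes and the 5 profiles nearest to *CAMK4* among genes with a mean of at least 1 TPM. *PPM1F*, *PRKAA2*, *WDR36*, *STARD4* and *MAN2A1* were named outside that rule, after their values were seen. One gene that the rule names is not reported here. The members and lists were chosen with earlier results of these data known. Alternatives were pseudocounts of 0.1 and 1, a filter at a TPM of 1 or none, median-of-ratios scaling, quantile normalization, values without *RPPH1* and *RMRP*, voom on the recovered reads, the replicate number as a block, no fold threshold, and leaving out each library. Upstream sequences came from RefSeq, and each matched GRCh37 at 1 place. Gene positions came from GENCODE release 44 on GRCh37, in which 88 of 92 list symbols were found. *CAMK1G* and *CAMK2A* were not analysed here.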

Additional observations from a re-analysis of the deposited data

How the results depend on the processing

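Of 745 alternative results for 37 named genes, 674 kept their direction and their side of an adjusted p of 0.05, whatever the fold, 51 rose above that p, 7 came below it and 13 turned direction. Fits without 1 library entered at both the main filter and a filter at 2 libraries, with the same fold change where both tested the gene. Settings that did not test a gene were left out, as for *CAMK4* and *CAMK1D* at the main filter without 1 shEV library. With no fold threshold the counts were 5629 genes in all, 5 CaM kinase members, 31 pathway genes and 5 flanking genes. Leaving out each library gave 484 to 610 genes in all, 0 to 2 members, 5 to 9 pathway genes and 0 to 2 flanking genes. With the filter then set at 2 libraries, chosen after seeing the data, these were 589 to 708, 2, 8 to 10 and 0 to 2. The flanking count was 1 with a filter at a TPM of 1, with a pseudocount of 1 or with median-of-ratios scaling, and 0 with quantile normalization. Calls were 188 higher and 410 lower on the TPM scale, 227 and 341 with median-of-ratios scaling, and 240 and 293 with quantile normalization. Values that turned direction were all near 0: *CAMK2G* (-0.0062 without shEV replicate 2, -0.0323 without shPAX2 replicate 1), *CRTC1* (-0.0601 without shEV replicate 1, -0.0212 without shPAX2 replicate 1), *HDAC7* (0.0071 with median-of-ratios scaling, 0.0083 without shPAX2 replicate 1), and, with median-of-ratios scaling, *SLC25A46* (0.0179) and *CALM2* (0.0140). Over the fits without 1 library *CAMK2G* ran from -0.0323 to 0.0560, *CRTC1* from -0.0601 to 0.16 and *HDAC7* from -0.20 to 0.0083. Where the filter is not the reason, the cause was not tested.

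The labels do not say whether same-numbered libraries were paired. The deviations of same-numbered libraries correlated at -0.0523, 0.0815 and 0.0014, which does not settle it. A block on the replicate number gave 588 genes in all, 2 members, 8 pathway genes and 2 flanking genes. *PNCK* then had an adjusted p of 0.144. Depth limits *CAMK1*, *CAMK2B* and the shPAX2 values of *CAMK4* and *CAMK1D*, which rest on 10 reads or fewer in a library.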
